A study of Mus musculus with 6 samples.

Results

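The 10 genes described here are those of the activity-responsive AP-1 group and of related bZIP factors, namely Fos, Fosb, Fosl1, Fosl2, Jun, Junb, Jund, Atf3, Maff and Crem. They were listed by name, with earlier results of these data known, and each had 1 row among the 25814 genes of the count table. Expression was measured by RNA sequencing of primary neurons on the C57BL/6 background, a mixture from cortex and hippocampus, after 18 days in vitro. There were 3 wild-type (WT) libraries and 3 Tlr7-/- libraries, the latter from neurons labelled as lacking Tlr7, which encodes a receptor that senses single-stranded RNA in endosomes. No treatment is given in the labels for either genotype. The design of the Tlr7 deletion and the age and sex of the animals are not given in the sources used here. No source says whether replicates are separate cultures or animals. The p-values then describe the spread between these samples alone, which may be technical.

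AP-1 is a dimeric transcription factor. Its subunits carry a basic region that contacts DNA and a leucine zipper (together bZIP), through which a Fos protein pairs with a Jun protein. Fos proteins do not form stable dimers with each other, whereas Jun proteins can. In neurons, Fos, Fosb and Junb are immediate early genes, whose transcription rises within minutes of synaptic activity and calcium entry, whereas Jund is known for a steadier basal level. Atf3 is a stress- and injury-induced factor that pairs with Jun proteins, Maff is a small Maf protein without a transactivation domain, and Crem encodes cAMP-responsive activators and the repressor ICER.

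The upstream regions of 4 members are shown as examples, as elements near the start sites of such genes are known to receive activity signals. They were not set apart by their levels, since all 10 members were low in Tlr7-/- replicates 2 and 3. Each sequence holds the 250 bases before the RefSeq start site (GRCm38.p6), 5′ to 3′ in the direction of the gene; the RefSeq start can differ from the gene start in the count table. Capitals mark TGACG, the core of the cAMP response element, TGACATCA, a relative of the AP-1 element, and TATAAA.
Fos, chr12:85473640-85473889, plus strand: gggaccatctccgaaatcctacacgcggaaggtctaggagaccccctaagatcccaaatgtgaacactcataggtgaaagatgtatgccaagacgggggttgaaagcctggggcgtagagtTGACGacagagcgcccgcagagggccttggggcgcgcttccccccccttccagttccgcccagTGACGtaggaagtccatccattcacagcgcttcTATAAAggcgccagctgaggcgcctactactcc
Fosb, chr7:19310046-19310295, minus strand: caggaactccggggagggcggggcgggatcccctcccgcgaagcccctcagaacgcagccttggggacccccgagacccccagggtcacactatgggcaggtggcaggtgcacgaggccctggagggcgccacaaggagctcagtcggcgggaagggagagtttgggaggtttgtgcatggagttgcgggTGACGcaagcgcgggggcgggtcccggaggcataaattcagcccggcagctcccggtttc
Junb, chr8:84978749-84978998, minus strand: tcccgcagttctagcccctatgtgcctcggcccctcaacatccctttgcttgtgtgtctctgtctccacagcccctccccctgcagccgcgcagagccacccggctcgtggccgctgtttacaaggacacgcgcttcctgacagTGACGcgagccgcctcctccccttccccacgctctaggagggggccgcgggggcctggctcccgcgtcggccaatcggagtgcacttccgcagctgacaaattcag
Jun, chr4:95052223-95052472, minus strand: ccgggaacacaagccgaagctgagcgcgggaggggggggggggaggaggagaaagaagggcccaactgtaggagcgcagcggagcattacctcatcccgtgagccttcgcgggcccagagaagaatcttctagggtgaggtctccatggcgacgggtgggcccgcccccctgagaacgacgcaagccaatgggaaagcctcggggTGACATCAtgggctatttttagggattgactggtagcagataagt
Counted back from the base before the start site as -1, TGACG lay at -129 to -125 and again at -66 to -62 in Fos, with TATAAA at -33 to -28. TGACG lay at -60 to -56 in Fosb and at -106 to -102 in Junb. Jun had no TGACG in this window and held TGACATCA at -45 to -38. RefSeq windows were used for 8 of the 10 members, and no window of Fosl1 or Crem was searched. TGACG, searched on both strands, was in a window of 5 of the 8 (Fos, Fosb, Junb, Atf3 and Maff, which has several start sites). Of 32851 promoter windows of the same length, 17.8% held TGACG, 2.93% held TGACATCA and 12.4% held TATAAA. These shares are per window, whereas the members were counted per gene over any of their windows, so the units differ. The AP-1 element TGACTCA, present in 4.46% of windows, was in no window of these 8 members. The full element TGACGTCA, which contains TGACG and was in 1.55% of windows, was in 1 window of Maff, which had TGACATCA in another. The CArG box, the binding element of serum response factor and present in 1.47% of windows, was in no window of these 8 members. Bases farther upstream than 250 were not searched, so absence from a window does not show that a gene lacks the element. The windows of Fosl2 and Jund, which are not printed, held no match to any of the elements named here. The RefSeq starts of Fosl2 (32136472) and Jund (70697739) differ from the gene starts in the count table (32135801 and 70698949). That of Atf3 (191183333) also differs (191218039 in the count table, minus strand). The windows of these genes are thus not the bases just before the counted gene start. A match is a description of the letters and not a site shown to be used.

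Total counts were 23272450 to 25696625 per library, and the 10 members together took 606 to 888 CPM (counts scaled to a common library total) in WT and 782 CPM in Tlr7-/- replicate 1, but 159 and 128 CPM in Tlr7-/- replicates 2 and 3. Tlr7 had 3 to 8 counts in each of the 6 libraries, so its level checks no label. The labels name Tlr7-/- replicate 1 in the style of the WT libraries and replicates 2 and 3 in another style. Replicates 2 and 3 stood apart on the first principal component of all tested genes, which held 62.8% of the variance, with scores of 46.3 and 44.6 against -29 to -15.6 in the other 4 libraries. Mitochondrially encoded genes took 4.4% and 4.19% of their counts, against 2.6% to 3.14% in the others. The Tlr7-/- group is therefore described both whole and split by naming style. As every WT library is of the first naming style, genotype and naming style cannot be told apart in replicates 2 and 3.

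In WT neurons the members covered a wide range of levels. The authors' TPM, a measure scaled by gene length and library total, serves here to compare genes. Mean TPM was 219.8 ± 14 (SD, n = 3) for Jund, 218 ± 58 for Fos and 155 ± 44.4 for Junb. The WT ranges of Jund and Fos overlapped, as did those of Fos and Junb. Jun followed with 99.4 ± 5.1 TPM, below every WT value of Junb and above every WT value of Fosl2. Fosl2 (64.2 ± 15.7 TPM), Atf3 (58.7 ± 12) and Fosb (51.2 ± 16.4) formed a middle group whose neighbouring ranges overlapped. Crem (9.4 ± 0.94 TPM), Maff (8.19 ± 3.46) and Fosl1 (3.9 ± 0.723) were the lowest, again with overlapping neighbours and below every WT value of the 7 other genes. The spread within WT was itself uneven. Its coefficient of variation was 5.13% for Jun and 6.36% for Jund, against 26.6% for Fos, 28.6% for Junb, 32% for Fosb and 42.3% for Maff. WT replicate 3 was the lowest of the 3 WT libraries for all 10 members on the CPM scale, where it was the lowest for 36.7% of the 13947 tested genes.

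**Figure D1:**
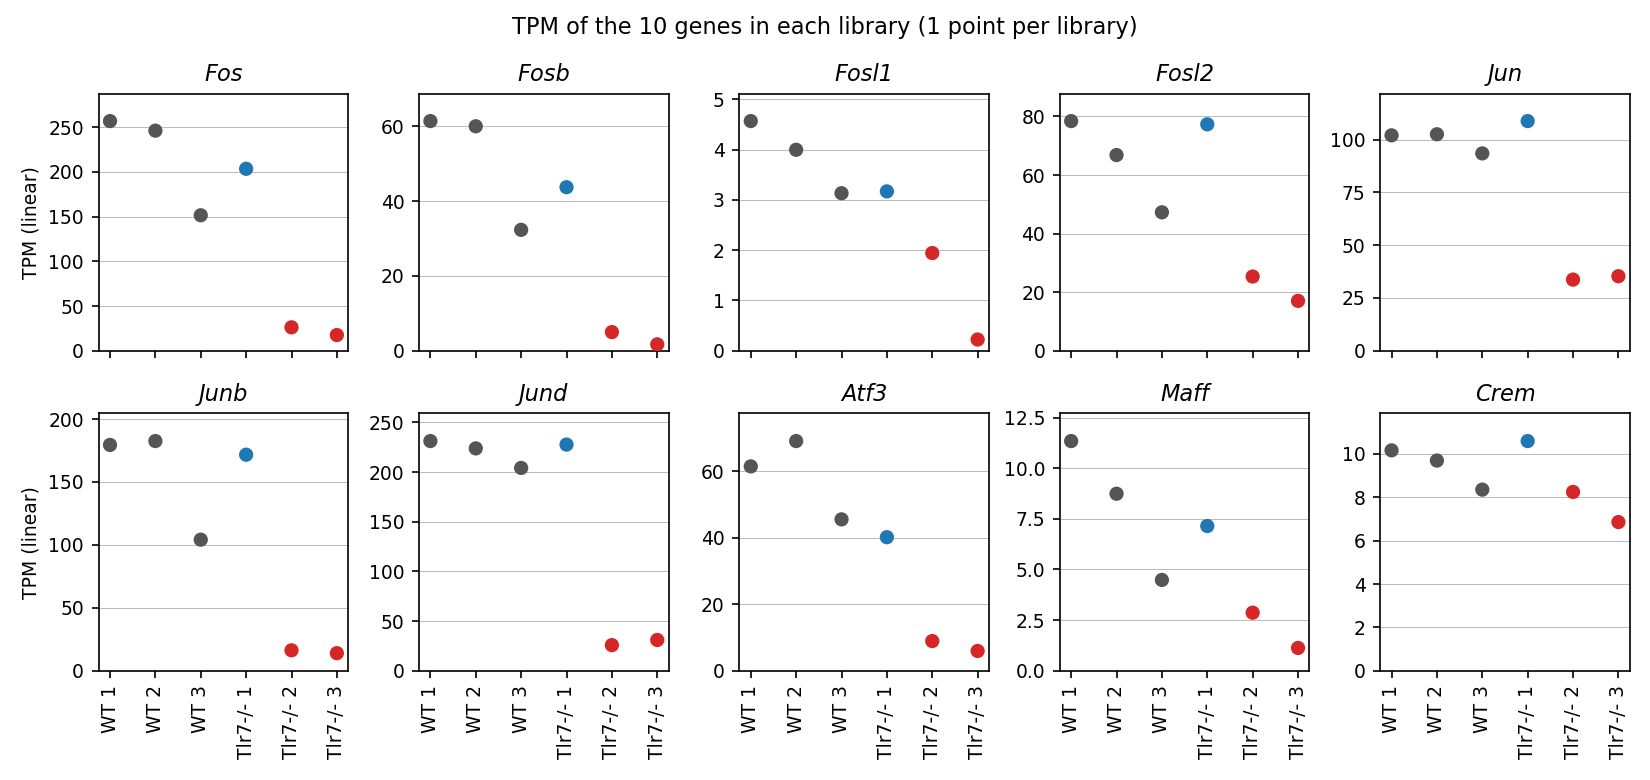
TPM of each gene (linear axes from 0) in the 3 WT libraries (grey), Tlr7-/- replicate 1 (blue) and Tlr7-/- replicates 2 and 3 (red), 1 point per library. Replicates 2 and 3 are the 2 lowest libraries for each of the 10 genes, while replicate 1 lies near WT.

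The first comparison set the 3 Tlr7-/- libraries against the 3 WT libraries. All 10 had a lower fitted level in Tlr7-/- neurons, but none passed edgeR's quasi-likelihood test after Benjamini-Hochberg adjustment across the whole table, where 0 of 13947 genes (0%) passed and 3932 had an unadjusted p under 0.05. The members' log2 fold changes ran from -1.73 for Atf3 to -0.22 for Crem, with a median of -1.23, against 0.0014 for all genes tested, and edgeR adjusted p from 0.161 to 0.455. At an unadjusted p under 0.05 there was 1 member, Atf3. Limma-voom also called 0 of the 10 and 0 of all genes, with a members' median of -1.92. DESeq2's Wald test called 1785 genes and none of the 6 members to which it gave an adjusted p, and it gave none to Fos, Fosb, Junb and Jund. Without Tlr7-/- replicate 1, edgeR called all 10 members and 6911 genes. The same contrast in the authors' deposited edgeR table had log2 fold changes between -1.76 (Atf3, false discovery rate 0.0525) and -0.22 (Crem, 0.77). Fosl1 had -0.39 there, against -1.20 in the edgeR fit here.

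The second comparison took the 2 parts of the Tlr7-/- group apart, in a fit of 3 groups that share 1 estimate of spread. In replicate 1 none of the 10 members passed the test against WT, where 1.43% of all genes did, 0.889% higher and 0.545% lower. Jun and Crem lay above all WT libraries in replicate 1 on the CPM scale, as did 29.4% of tested genes, and Fosl1 and Atf3 below them, as did 34.6%. In replicates 2 and 3 all 10 were lower than in WT (median log2 fold change -2.63, against -0.002 for all genes), where 49.6% of all genes tested were called, 25.2% lower and 24.4% higher. Every value of replicates 2 and 3 lay below the other 4 libraries for all 10 members on the CPM scale, a pattern shown by 28.5% of tested genes. Replicate 3 was below replicate 2 for 8 members, all but Jun and Jund, and for 54.4% of tested genes. The difference between replicates 2 and 3 and replicate 1, tested directly, was called for 8 members, all lower, where 31.6% of genes were called, 16.6% lower and 15% higher. This last test rests on 1 library in one arm, which is assumed to vary like the others.

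**Figure D2:**
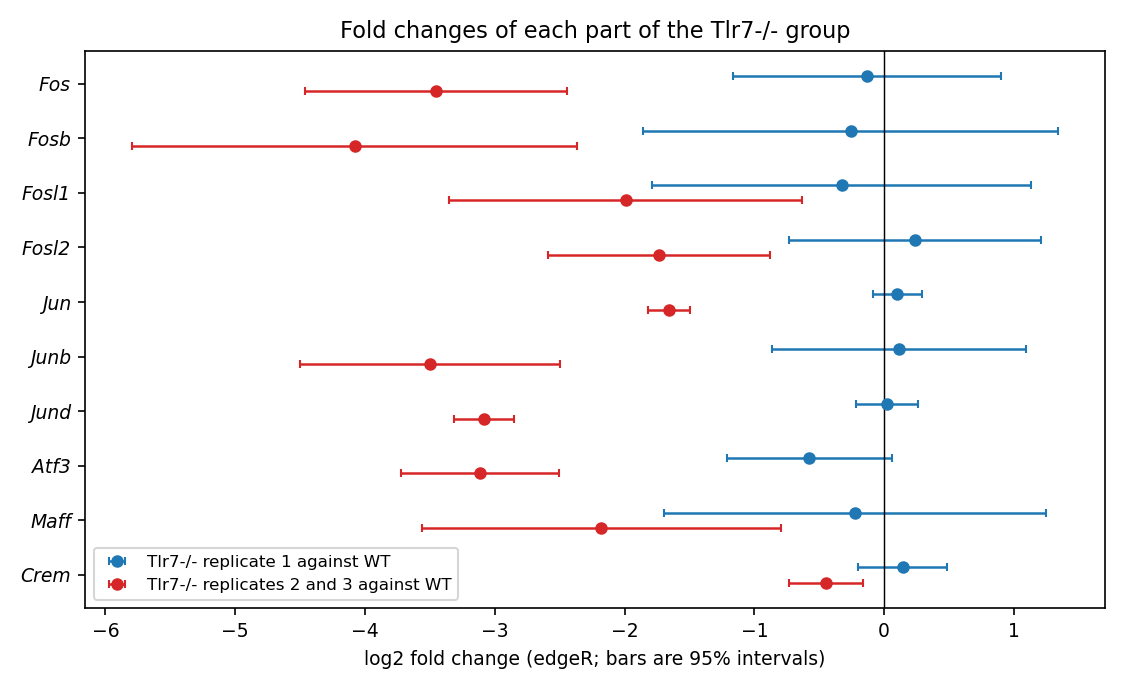
Log2 fold change of each gene against WT in the fit with 3 groups (points, with 95% intervals as bars), for Tlr7-/- replicate 1 (blue) and Tlr7-/- replicates 2 and 3 (red). The blue intervals all include 0, and the red intervals all lie below 0, from -4.08 for Fosb to -0.45 for Crem.

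Among the Fos family, Fos (ENSMUSG00000021250, GRCm38 chromosome 12, 85473890 to 85477273, plus strand), which encodes the prototype partner of Jun, had 257, 246 and 151 TPM in WT replicates 1 to 3. It had 203 TPM in Tlr7-/- replicate 1 and 26.2 and 17.6 TPM in replicates 2 and 3. Replicate 1 thus lay inside the WT range, and replicates 2 and 3 at 10% of the WT mean. The log2 fold change was -0.13 ± 0.38 (SE) in replicate 1 (95% interval -1.16 to 0.90, edgeR adjusted p = 0.915). It was -3.45 ± 0.37 in replicates 2 and 3 (edgeR adjusted p = 0.00253), and replicates 2 and 3 differed from replicate 1 by -3.32 ± 0.42 (edgeR adjusted p = 0.00848).

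Fosb (ENSMUSG00000003545, chromosome 7, 19302696 to 19310051, minus strand) encodes FosB and, by splicing, the long-lived truncated form deltaFosB. These forms are not separated in counts per gene. Its TPM was 61.4, 60 and 32.3 in WT and 43.7 in Tlr7-/- replicate 1, with 4.98 and 1.71 in replicates 2 and 3. This was the largest fall among the members, to 6.53% of the WT mean, and replicate 3 was again lower than replicate 2. In replicates 2 and 3 the log2 fold change was -4.08 ± 0.61 (edgeR adjusted p = 0.00897), while it was -0.26 ± 0.57 in replicate 1 (95% interval -1.86 to 1.34). Of the 13947 tested genes, 21 had a lower log2 fold change than Fosb in replicates 2 and 3 against WT. The difference from replicate 1, -3.82 ± 0.69 (edgeR adjusted p = 0.0252), did not pass without WT replicate 1 (0.0602), WT replicate 2 (0.0838), Tlr7-/- replicate 3 (0.0646) or the filter on low counts (0.0512).

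Fosl2 (ENSMUSG00000029135, chromosome 5, 32135801 to 32157842, plus strand), which encodes Fra-2, had a smaller fold change than Fos and Fosb, though these differences between genes were not tested. Its TPM was 78.4, 66.8 and 47.3 in WT and 77.3 in Tlr7-/- replicate 1, with 25.3 and 17 in replicates 2 and 3. The last 2 values came to 33% of the WT mean. Against WT, the log2 fold change was -1.74 ± 0.31 in replicates 2 and 3 (edgeR adjusted p = 0.0125) and 0.24 ± 0.36 in replicate 1 (95% interval -0.73 to 1.21). The call in replicates 2 and 3 was lost without WT replicate 2 (edgeR adjusted p = 0.057) or Tlr7-/- replicate 3 (0.061). The difference from replicate 1 (-1.97 ± 0.38, edgeR adjusted p = 0.0245) was lost without WT replicate 2 (0.0759), Tlr7-/- replicate 2 (0.0506), Tlr7-/- replicate 3 (0.0766) or the filter on low counts (0.0572).

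Fosl1 (ENSMUSG00000024912, chromosome 19, 5447703 to 5455945, plus strand), which encodes Fra-1, was scarcely expressed. Its counts were 70, 56 and 46 in WT and 47 in Tlr7-/- replicate 1, with 25 and 3 in replicates 2 and 3, so that replicate 3 was at the limit of 3 counts that a count of 0 allows. The 2 libraries differed 8.71-fold in TPM. In replicates 2 and 3 the log2 fold change was -1.99 ± 0.59 (edgeR adjusted p = 0.0233). It was -4.19 without Tlr7-/- replicate 2 and -1.145 without Tlr7-/- replicate 3, and the call was lost without WT replicate 1 (edgeR adjusted p = 0.0744) or WT replicate 2 (0.0692). Against replicate 1 the difference was not called (-1.66 ± 0.74, edgeR adjusted p = 0.124). It was -3.87 and passed without Tlr7-/- replicate 2 (edgeR adjusted p = 0.00555), and it was -0.82 without Tlr7-/- replicate 3 (0.196). In the authors' deposited edgeR table, whose contrast is Tlr7-/- against WT, Fosl1 had a log2 fold change of -0.39. That contrast gave -1.20 ± 0.67 by edgeR from the count table used here. The authors' mean was 2.49 log2 CPM, against 0.74 from the count table. The source of this difference of 1.75 is not given in the sources used here. The count table lists Ccdc85b, on the opposite strand, 844 bases away.

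In the Jun family, Junb (ENSMUSG00000052837, chromosome 8, 84974484 to 84978718, minus strand), an immediate early gene whose protein can restrain Jun, had 179, 182.5 and 104 TPM in WT. It had 172 TPM in Tlr7-/- replicate 1, but 16.2 and 14 in replicates 2 and 3, which is 9.71% of the WT mean. Its profile over the 6 libraries, with no removal of library trends in GC content and length, was the nearest of all tested genes to that of Fos. Against WT, the log2 fold change was -3.50 ± 0.37 in replicates 2 and 3 (edgeR adjusted p = 0.00239) and 0.11 ± 0.36 in replicate 1 (95% interval -0.87 to 1.10). Replicates 2 and 3 against replicate 1 gave a log2 difference of -3.61 ± 0.42 (edgeR adjusted p = 0.00684). Prdx2, on the opposite strand, overlaps the end of Junb and had 5703 to 9197 counts per library. The library kit keeps strand, but whether the counting used it is not given in the sources used here.

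Jund (ENSMUSG00000071076, chromosome 8, 70698949 to 70700616, plus strand) was nearly constant among the first 4 libraries and low in the other 2. Its TPM was 231, 224 and 204 in WT and 228 in Tlr7-/- replicate 1, with 25.8 and 31 in replicates 2 and 3. The 2 low libraries came to 12.9% of the WT mean, and here replicate 2 was the lower. In replicates 2 and 3 the log2 fold change was -3.08 ± 0.10 (edgeR adjusted p = 4.5e-07), the smallest p among the members, while it was 0.02 ± 0.11 in replicate 1 (95% interval -0.21 to 0.26). Replicates 2 and 3 differed from replicate 1 by -3.11 ± 0.12 (edgeR adjusted p = 1.29e-06), and by -1.54 with library trends in GC content and length removed. Jund is also the member with the highest GC content, and its fold change moved most when library trends with GC content were removed, as given below. In the authors' deposited edgeR table its mean was 5.03 log2 CPM, against 6.50 from the count table used here.

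Jun (ENSMUSG00000052684, chromosome 4, 95049034 to 95052222, minus strand), the target of the Jun N-terminal kinases, had the smallest fold change of the 3 Jun genes as fitted, but not once library trends with GC content and length were removed (-1.47 for Jun and -1.44 for Jund). Its TPM was 102, 103 and 93.5 in WT and 109 in Tlr7-/- replicate 1, with 33.7 and 35.3 in replicates 2 and 3. Replicate 1 was above all WT libraries, and replicates 2 and 3 were at 34.7% of the WT mean with little spread. The log2 fold change was -1.66 ± 0.07 in replicates 2 and 3 (edgeR adjusted p = 1.71e-06) and 0.10 ± 0.08 in replicate 1 (95% interval -0.09 to 0.29). Replicates 2 and 3 against replicate 1 gave a log2 difference of -1.76 ± 0.09 (edgeR adjusted p = 7.74e-06).

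Atf3 (ENSMUSG00000026628, chromosome 1, 191170296 to 191218039, minus strand) was the member with the lowest value in Tlr7-/- replicate 1 relative to WT. Its TPM was 61.5, 69.1 and 45.6 in WT and 40.2 in Tlr7-/- replicate 1, with 8.93 and 5.95 in replicates 2 and 3. All 3 Tlr7-/- libraries thus lay below all 3 WT libraries, which on the CPM scale held for Atf3 and Fosl1 among the members and for 16.8% of tested genes. The log2 fold change was -0.58 ± 0.26 in replicate 1 (95% interval -1.21 to 0.06, edgeR adjusted p = 0.366). It was -3.12 ± 0.25 in replicates 2 and 3 (edgeR adjusted p = 0.000157), and replicates 2 and 3 differed from replicate 1 by -2.54 ± 0.30 (edgeR adjusted p = 0.00188).

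Maff (ENSMUSG00000042622, chromosome 15, 79346621 to 79359076, plus strand) had 11.3, 8.74 and 4.48 TPM in WT and 7.15 in Tlr7-/- replicate 1, with 2.87 and 1.13 in replicates 2 and 3. Its counts were 23 to 264 per library, and its coefficient of variation in WT was the largest of the 10. The SE in replicates 2 and 3 was larger for Fosb (0.61) and Fosl1 (0.59). The log2 fold change was -2.18 ± 0.55 in replicates 2 and 3 (edgeR adjusted p = 0.0218), a call that was lost without WT replicate 2 (0.0672), Tlr7-/- replicate 3 (0.0925) or the filter on low counts (0.0626). It was -0.23 ± 0.59 in replicate 1 (95% interval -1.70 to 1.25). Against replicate 1 the difference was not called (-1.95 ± 0.68, edgeR adjusted p = 0.0805), and without WT replicate 3 it was (0.00994). By limma-voom it was also called (adjusted p = 0.0496), as it was on log2 RPKM with pseudocounts of 0.1 (0.0403) and 0.5 (0.0464).

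Crem (ENSMUSG00000063889, chromosome 18, 3266048 to 3337748, minus strand) had the smallest fold change of the 10. Its TPM was 10.2, 9.69 and 8.35 in WT and 10.6 in Tlr7-/- replicate 1, with 8.25 and 6.86 in replicates 2 and 3, or 80.3% of the WT mean. The value of replicate 2 lay just under that of WT replicate 3. The log2 fold change was -0.45 ± 0.13 in replicates 2 and 3 (edgeR adjusted p = 0.015) and 0.14 ± 0.15 in replicate 1 (95% interval -0.20 to 0.49). The call in replicates 2 and 3 was lost without WT replicate 1 (edgeR adjusted p = 0.051), WT replicate 2 (0.0534) or Tlr7-/- replicate 3 (0.105), and by limma on log2(TPM + 0.5) (0.0916). Replicates 2 and 3 against replicate 1 gave a log2 difference of -0.59 ± 0.16 (edgeR adjusted p = 0.0228), lost without Tlr7-/- replicate 3 (0.0792) and on log2(TPM + 0.5) (0.0797). Counts per gene do not separate the activator transcripts from that of ICER.

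On the scale of the deposited TPM, the make-up of each family differed between libraries along with its sum. Summed TPM of the 4 Fos family genes was 401, 377 and 234 in WT and 328 in Tlr7-/- replicate 1, with 58.5 and 36.5 in replicates 2 and 3. Fos itself held 64%, 65.3% and 64.7% of that sum in WT and 62.1% in Tlr7-/- replicate 1, but 44.8% and 48.1% in replicates 2 and 3. Fosl2 held 17.7% to 20.2% in WT, 23.6% in replicate 1, and 43.3% and 46.6% in replicates 2 and 3. The shares of the Jun family differed as well. Its summed TPM was 513, 509 and 402 in WT and 508 in Tlr7-/- replicate 1, with 75.7 and 80.2 in replicates 2 and 3. Jun went from 19.9% to 23.3% of it in WT and 21.4% in replicate 1 to 44.5% and 44% in replicates 2 and 3, whereas Junb went from 25.9% to 35.9% in WT to 21.4% and 17.4%. The ratio of summed Fos family to Jun family TPM was 0.583 to 0.783 in WT, 0.645 in Tlr7-/- replicate 1, 0.772 in replicate 2 and 0.455 in replicate 3, so it had no common direction. These shares are descriptions without a test, and the TPM behind them carry the library trends with GC content given next. With those trends removed, the log2 fold changes of Jun and Jund in replicates 2 and 3 against WT were nearly alike (-1.47 and -1.44), while those of Fosl2 and Fos were -1.82 and -3.23.

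**Figure D3:**
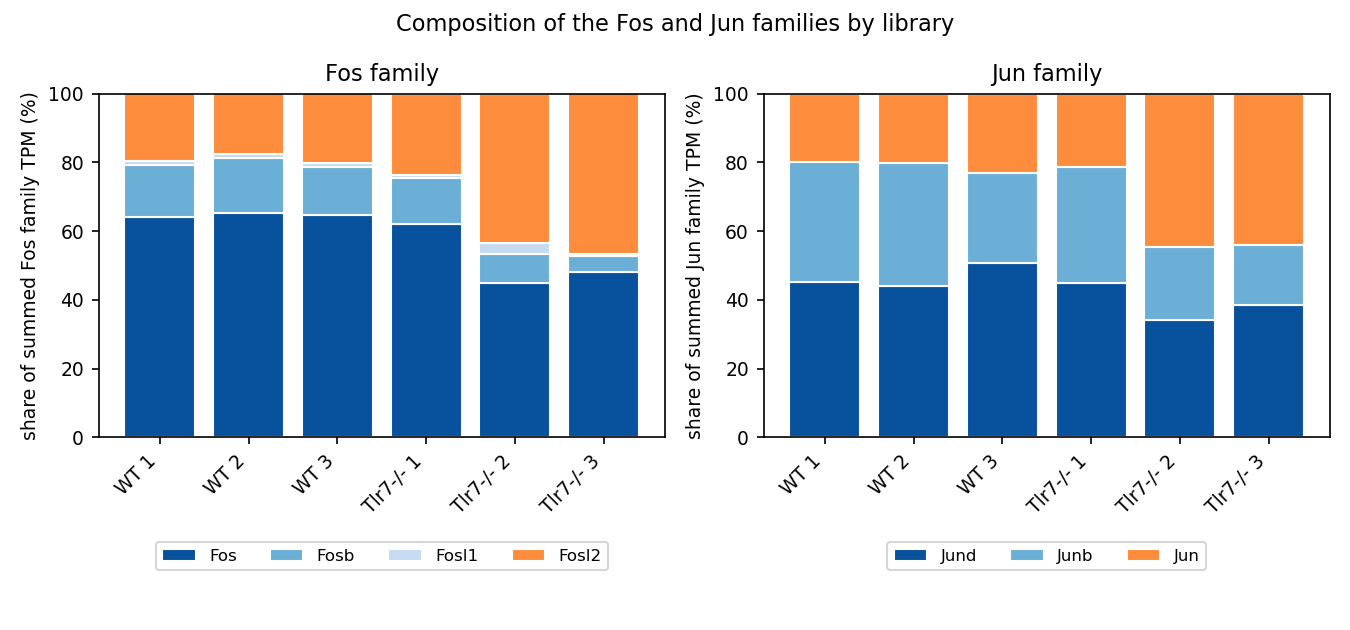
Share of the summed TPM of the Fos family (left) and the Jun family (right) held by each member in each library, as stacked bars from 0 to 100%. Fosl2 and Jun (orange, at the top) take 43.3% to 46.6% in Tlr7-/- replicates 2 and 3, against 17.7% to 23.6% in the other 4 libraries. The TPM are as deposited, with no removal of trends with GC content.

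The 2 low libraries also differed from the others in how counts depended on a gene's base composition and length. Across 13935 genes, which are not independent replicates, the rank correlation of a gene's deviation from its mean with GC content was -0.545 and -0.46 in Tlr7-/- replicates 2 and 3 and 0.306 to 0.513 in the other 4 libraries. With transcript length it was 0.372 and 0.429 against -0.449 to -0.0954. The members are mostly GC-rich and short: Jund (67.1% GC) was at percentile 99.8 of tested genes and Junb (62.6%) at 98.7, and 6 members were below percentile 25 in length. When these trends were removed library by library, Jund's log2 fold change in replicates 2 and 3 against WT went from -3.08 to -1.44 (edgeR adjusted p = 8.18e-06), and Junb's from -3.50 to -2.57 (0.00992). Fos moved only to -3.23, Fosb to -3.92, Atf3 to -2.88, Jun to -1.47 and Fosl2 to -1.82, each still called. Crem, the only member with a GC content below the median, moved to -0.61 and was still called. Fosl1 (-1.52, edgeR adjusted p = 0.0887) and Maff (-1.78, 0.0597) were no longer called. So 8 of 10 members were called lower after the correction, where 17.1% of all genes were called lower and 15.5% higher, and the members' median was -1.80 (all genes 0.017). Against replicate 1 also 8 were called lower, where 11.4% of all genes were, with a median of -1.83 (all genes -0.0053).

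**Figure D4:**
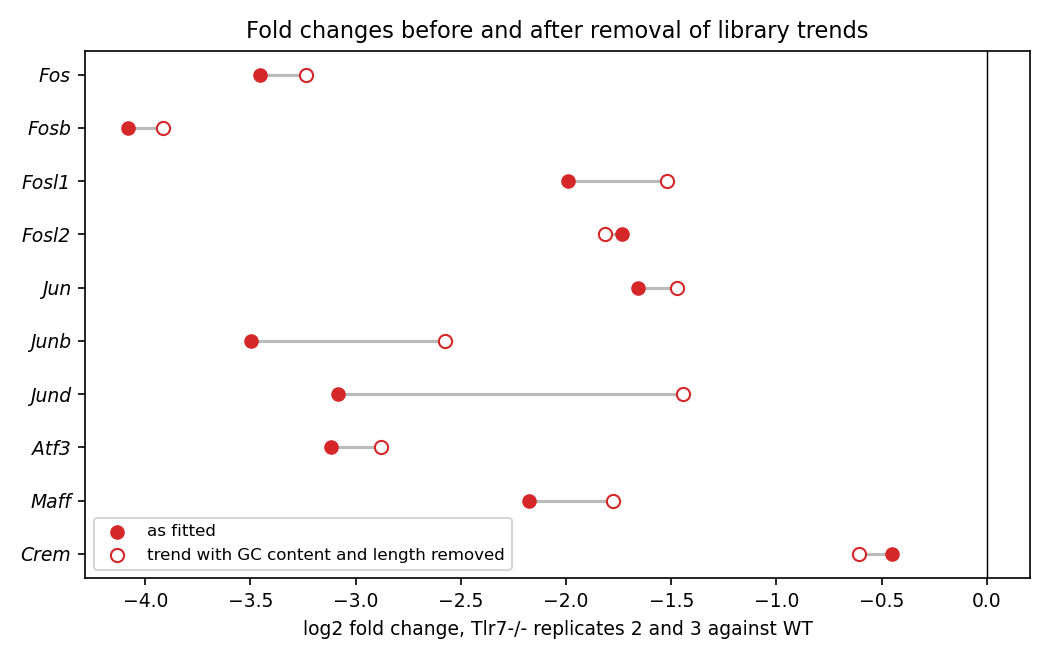
Log2 fold change of each gene in Tlr7-/- replicates 2 and 3 against WT as fitted (filled) and after removal of the library trends with GC content and length (open). All values stay below 0, and Jund moves most, from -3.08 to -1.44.

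Markers of the cell types that such cultures can hold were summed as deposited TPM for comparison, with no removal of trends with GC content. The 12 neuronal markers summed to 6763 to 7029 TPM in WT and 6674 in Tlr7-/- replicate 1, with 6944 and 7449 in replicates 2 and 3. The neuronal sum was thus not below WT in the 2 low libraries, but single markers were split. In replicates 2 and 3 against WT 6 were called higher and 3 lower, beside 24.4% and 25.2% of all genes. With the GC and length trend removed 3 were higher and 4 lower, beside 15.5% and 17.1%. The 10 astrocyte markers summed to 3291 to 3490 in WT, 2864 in replicate 1, and 3576 and 3288 in replicates 2 and 3. The 11 oligodendrocyte-lineage markers were lower, with 1132 to 1150 TPM in WT, 811 in replicate 1, and 559 and 693 in replicates 2 and 3. Of the 12 microglial markers in the table the sum was 25.4 to 61.5 TPM in WT, 49.9 in replicate 1 and 90.2 and 42.6 in replicates 2 and 3, with Tmem119 at no more than 3 counts in any library. The 11 vascular and fibroblast markers summed to 23.7 to 26.3, 41.4, and 23.4 and 19.6 TPM, with Cldn5 at no more than 3 counts and Cdh5 at 0 counts in every library. In bulk RNA, fewer cells of a type and less RNA per cell cannot be told apart. The part of the oligodendrocyte lineage and of the mitochondrial share in the members' values was not tested.

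Other bZIP genes were called in both directions. Of 39 such genes 35 were tested, and in replicates 2 and 3 against WT 14 were lower, 5 higher and 16 did not pass (median log2 fold change -0.19), beside 25.2% lower and 24.4% higher among all genes. In replicate 1 none was called, beside 1.43% of all genes. With all 3 Tlr7-/- libraries together no gene of this or the next 3 lists passed, as was the case for the whole table. Atf5, a stress-responsive relative of Atf4, had 160, 160 and 164 TPM in WT and 201 in Tlr7-/- replicate 1, with 80.4 and 89.2 in replicates 2 and 3, a log2 fold change of -1.06 ± 0.07 in the latter (edgeR adjusted p = 1.02e-05). This value was -0.26 after removal of the GC and length trend. Cebpd, which encodes C/EBP delta, had -2.32 ± 0.20 (edgeR adjusted p = 3.34e-05) and -2.24 after the removal. Atf6b, a membrane-bound relative of Atf6, had -0.62 ± 0.06 (edgeR adjusted p = 6.26e-05) and, after the removal, -0.06 without passing. With the trend removed 9 of the 35 were lower and 0 higher, beside 17.1% and 15.5% of all genes.

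Genes that act upstream of AP-1 were also called in both directions. Among 31 tested kinases, scaffolds and factors, 10 were higher and 10 lower in replicates 2 and 3 against WT (median 0.06). Among all genes 24.4% were higher and 25.2% lower. In replicate 1, 1 of the list was higher, beside 0.889% of all genes. Mapk8ip1, a scaffold of the Jun N-terminal kinase pathway, had a log2 fold change of -0.82 ± 0.07 (edgeR adjusted p = 3.71e-05). Mkl2, a coactivator of serum response factor, had 0.61 ± 0.07 (edgeR adjusted p = 0.000175), and Rps6ka3, a kinase of the ribosomal S6 kinase family, 0.82 ± 0.10 (0.000234). With the trend removed these were -0.39, 0.35 and 0.25. Counts with the trend removed were 6 higher and 5 lower, beside 15.5% and 17.1% of all genes.

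Most other immediate early genes were lower in replicates 2 and 3. Of 30 tested, 23 were lower than in WT, 1 was higher and 6 did not pass (median -1.50). Among all genes 25.2% were lower and 24.4% higher. In replicate 1, 3 of the list were higher and 0 lower, beside 0.889% and 0.545% of all genes. The gene higher in replicates 2 and 3, Homer1, encodes a postsynaptic scaffold and is named after its value was seen. Its log2 fold change was 0.21 (edgeR adjusted p = 0.0296). After removal of the GC and length trend, Homer1 had -0.54. Arc, a postsynaptic effector, had 65.9, 65.9 and 61.3 TPM in WT and 104 in Tlr7-/- replicate 1, with 10.25 and 14.7 in replicates 2 and 3. Its log2 fold change was -2.50 ± 0.14 in replicates 2 and 3 (edgeR adjusted p = 8.22e-06), with -2.85 ± 0.16 for Gadd45g, a stress-response gene, and -3.00 ± 0.21 for Egr4, a zinc finger factor (edgeR adjusted p = 2.52e-05). Egr4 had -1.24 after removal of the trend. The list's counts were then 23 lower and 0 higher, beside 17.1% and 15.5% of all genes. These genes were chosen with earlier results of these data known, so their direction is not independent of the members'.

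Genes described as under AP-1 control went in both directions. Of 30 such genes 21 were tested, and in replicates 2 and 3 against WT 9 were lower, 3 higher and 9 did not pass (median -0.53). Among all genes 25.2% were lower and 24.4% higher. In replicate 1, 1 of the list was higher, beside 0.889% of all genes. Npy, which encodes neuropeptide Y, had 200 to 212 TPM in WT and 272 in Tlr7-/- replicate 1, with 105.5 and 92.2 in replicates 2 and 3, a log2 fold change of -1.20 ± 0.08 (edgeR adjusted p = 1.43e-05). Inhba, which encodes the activin A subunit, had -2.71 ± 0.19 (edgeR adjusted p = 2.68e-05). Gria2, the AMPA receptor subunit that limits calcium entry, had 0.93 ± 0.08 (edgeR adjusted p = 4.36e-05), but -0.02 after removal of the trend, where Npy had -0.64 and Inhba -3.20. With the trend removed 6 of the 21 were lower and 1 higher, beside 17.1% and 15.5% of all genes.

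**Figure D5:**
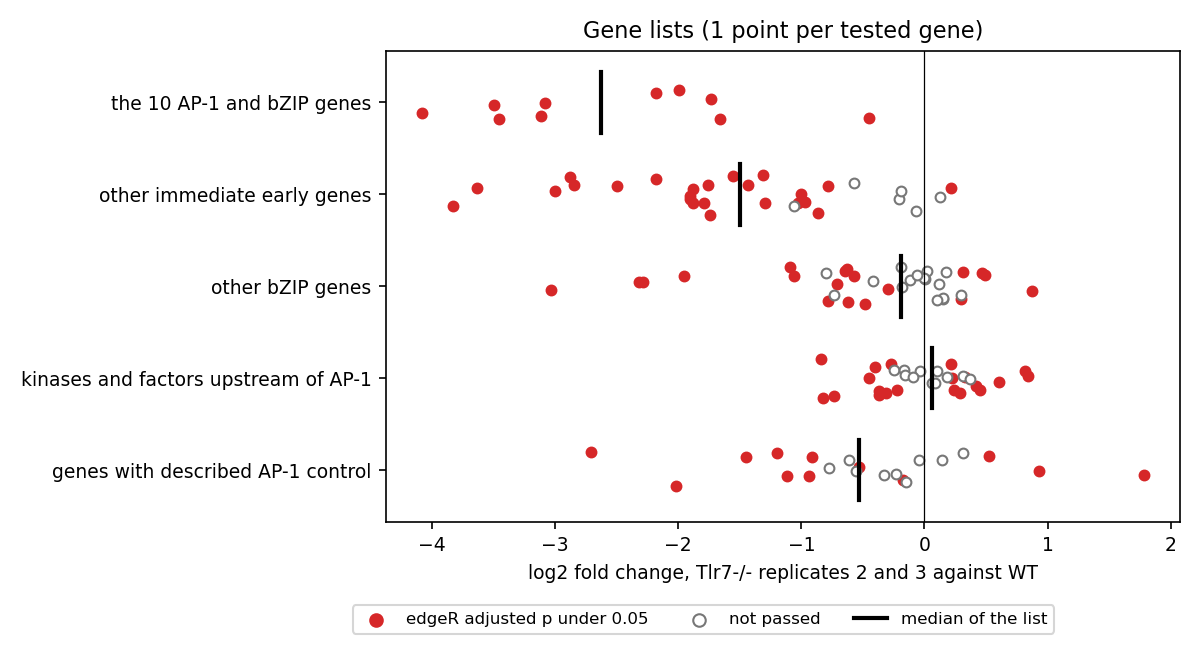
Log2 fold change of each tested gene in Tlr7-/- replicates 2 and 3 against WT, by list, with the median as a black bar; filled points passed the edgeR test. The 10 AP-1 and bZIP genes have a median of -2.63, other immediate early genes -1.50, other bZIP genes -0.19, upstream kinases and factors 0.06, and genes with described AP-1 control -0.53.

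Likeness to Fos was measured as the root mean square difference of log2 CPM, centred on the WT mean, over the 6 libraries. The library trends with GC content and length were not removed for it. Outside the members the nearest genes of 13946 were Npas4 (0.153), Pax1 (0.251), Nptx2 (0.274), Tgfbr3l (0.295) and Baiap2l1 (0.306). Npas4, a neuronal activity factor, had 5283, 4711 and 3040 counts in WT and 4008 in Tlr7-/- replicate 1, with 354 and 334 in replicates 2 and 3. Nptx2, a secreted synaptic pentraxin, had 5059 to 8916 counts in WT, 7293 in replicate 1, and 570 and 355 in replicates 2 and 3. Tgfbr3l had 15 to 35 counts in WT and 24 in replicate 1, and 0 in replicates 2 and 3. Among the members, Junb (0.149) was nearest, followed by Atf3 (0.286), Jund (0.371) and Fosb (0.51). With the trends removed, the log2 fold changes in replicates 2 and 3 against WT were -3.23 for Fos and -2.57 for Junb. They were then -2.88 for Atf3, -1.44 for Jund and -3.92 for Fosb. Likeness was not recomputed on that scale. Maff (0.783), Fosl1 (0.864), Fosl2 (0.997) and Jun (1.06) were farther, and Crem (1.74) was the farthest.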

How the data were processed

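RNA sequencing of 3 WT and 3 Tlr7-/- neuron libraries was analysed. Per the labels, TruSeq Stranded mRNA libraries were made from total RNA; the series text names an Illumina NextSeq500. GRCm38.p6, HISAT2, featureCounts, edgeR and bcl2fastq are named, without role or version, per the submitters' processing notes. The authors' deposited table holds raw total counts per gene, RPKM and TPM. A second deposited table holds the authors' comparison, with log2 fold changes, log2 CPM, p-values and false discovery rates; its test is not given in the sources used here.

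Counts were fitted with edgeR 4.0.16 in R 4.3.3 (filterByExpr by genotype, TMM, robust quasi-likelihood, two-sided), which kept 13947 of 25814 genes and 99.96% of counts. All 10 members passed the filter, Fosl1 with 5 of 6 libraries above the cut of 0.408 CPM and the others with 6. P-values were adjusted by Benjamini-Hochberg over all genes tested, at a threshold of 0.05. A second fit had 3 groups: WT, Tlr7-/- replicate 1, and Tlr7-/- replicates 2 and 3, after the naming style in the labels. GC content and length came from the longest transcript in GENCODE M21, which had 99.9% of genes, 94.8% of them at the same position; trends fitted as natural splines (5 degrees of freedom each) were entered as offsets. Named genes were the members, the 3 genes of each list with the smallest p in replicates 2 and 3 against WT, and the 5 genes most like Fos. The members and lists were chosen with earlier results of these data known. Promoters are from RefSeq. The fits were tested on simulated data. Alternatives were DESeq2 1.42.0, limma 3.58.1 (voom, and log2 of RPKM or TPM plus a pseudocount), other scalings and filters, thinning, a replicate block and leaving out each library. Figures were drawn with matplotlib 3.10.9. The limit for a count of 0 was set at 3 counts (95% level), which is 0.117 to 0.129 CPM depending on the library and covers counting error only.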

Additional observations from a re-analysis of the deposited data

Results flagged for a closer look

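Within the Tlr7-/- group, the change of 8 members against WT differed between replicates 2 and 3 and replicate 1, by the test of that difference in edgeR. The log2 differences of replicates 2 and 3 from replicate 1 were -3.32 for Fos, -3.82 for Fosb, -1.97 for Fosl2, -1.76 for Jun, -3.61 for Junb, -3.11 for Jund, -2.54 for Atf3 and -0.59 for Crem. In this test, which rests on 1 library in one arm, 31.6% of all genes were called, 16.6% lower and 15% higher. With library trends in GC content and length removed, the same 8 were called, beside 11.4% of all genes called lower. The difference of Jund was then -1.54. Beside this, the mitochondrial share of counts was 4.4% and 4.19% in replicates 2 and 3 and 2.98% in replicate 1, and the 2 parts carry different styles of library name. The part of either in these differences was not tested.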

How the results depend on the processing

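In replicates 2 and 3 against WT every member stayed below 0 in all 180 recomputed values, and 13 of these lost the call. These values reuse the same libraries, where replicates 2 and 3 lay below the other 4 for all 10 members, so their sign was nearly fixed. Against replicate 1 all 170 stayed below 0, 10 lost the call and 5 gained it. The cause of these changes was not tested. For Tlr7-/- against WT, genes called went from 0 to 1785 with DESeq2, 1 without the low-count filter, 1 with the GC and length trend removed, and 357 with the first naming style only, an alternative chosen after seeing the data. Leaving out each library gave 0 to 6911 genes and 0 to 10 members, the upper values without Tlr7-/- replicate 1. The members' median, -1.23 by edgeR, was -1.92 by limma-voom, -1.79 on log2 RPKM with a pseudocount of 0.1 and -1.76 with the replicate block. With the first naming style only, 5 members turned above 0: Fosl2 (0.24), Jun (0.11), Junb (0.12), Jund (0.0256) and Crem (0.15). For replicate 1 against WT, 200 genes became 443 with DESeq2, 126 with limma-voom, 353 without the filter, 357 with the first naming style only, 50, 22 and 1 on log2 RPKM with pseudocounts of 0.1, 0.5 and 1, and 60 on log2 TPM; leaving out each library gave 15 (without WT replicate 2) to 352 (without Tlr7-/- replicate 2 or 3), with 42 without WT replicate 1 and 347 without WT replicate 3. In these the fold change of Fos ran from -0.34 to 0.0047, of Junb from -0.11 to 0.25, of Jund from -0.0296 to 0.0609 and of Maff from -0.522 to 0.0853. For replicates 2 and 3 against WT, 6915 genes became 4546 with the trend removed, and leaving out each library gave 6 (without WT replicate 2) to 10 members. Against replicate 1, 4404 genes became 2609 with the trend removed, and leaving out each library gave 5 (without Tlr7-/- replicate 3) to 9 members. The split of calls in replicates 2 and 3 against WT was 3407 higher and 3508 lower, against 4716 and 2438 on log2 TPM, where the median of all genes shifted to 0.12, and 2541 and 4412 on log2 RPKM with a pseudocount of 0.1. Same-numbered replicates 1 and 3 deviated together (r across genes 0.241 and 0.264) and same-numbered replicates 2 did not (-0.0839). Not every sample correlated best with its own number. The deviations were taken from the mean of each genotype, so in Tlr7-/- they also carry the split of replicate 1 from replicates 2 and 3. These r values therefore cannot show or deny pairing. As the labels state no pairing, the numbers were not taken to pair the samples. With the replicate block 0 genes and 0 members were called, as without it. With 1 Tlr7-/- library of the first naming style, the width of its intervals limits what could be seen: up to -1.86 to 1.34 for Fosb on the log2 scale.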
